A study of Mus musculus with 30 samples.

Results

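Of the 369846 chromatin windows counted 4 h after treatment, 544 were opened by CK666 in MSCs and also in NIH3T3 fibroblasts. ATAC-seq measures how often a transposase cuts each stretch of the genome, so that open, nucleosome-poor chromatin collects more reads, and read levels below are in CPM, the reads in a window scaled to 1e6 reads in all windows of 1 library. Members were chosen by these 4 h values: a window was taken when its lowest CK666 CPM was at least 0.5 and over 1.5 times its highest control CPM in MSCs, and the same held in NIH3T3 cells. On MSC libraries alone 3106 windows met this rule and on NIH3T3 libraries alone 13480 did. The 4 h values of the members are therefore a description of what was chosen, and the tests below use the 24 h libraries or the other cell type, which the choice did not use.

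CK666 is a small molecule that blocks the Arp2/3 complex, the machine that starts branched actin filaments, and cytochalasin D (CytoD) caps filament ends. The MSCs were a primary line expanded from the marrow of male C57BL/6J mice, while NIH3T3 is an established line of mouse embryonic fibroblasts that GEO's labels also enter as C57BL/6J and male. The paper gives that strain and sex for the MSCs only, and the label for NIH3T3 was not checked. Each group held 3 libraries: control and CK666 at 4 h in both cell types, and control, CK666 and CytoD at 24 h in untransfected MSCs, with no genetic change in any of these groups and no doses given for the ATAC-seq. Nothing says whether the 3 libraries of a group came from separate cultures, so p-values cover the spread between these libraries, which may be technical.

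The libraries held 14496058 to 34979833 reads in windows at 4 h, where 0.5 CPM is 7.25 to 17.5 reads, and 14071301 to 22352180 at 24 h. The NIH3T3 CK666 libraries were the shallowest at 4 h. By column totals the median window with a mean of at least 0.5 CPM stood 0.14 higher on the log2 scale with CK666 than in control in NIH3T3 cells and 0.03 higher in MSCs, and the part of this shift in the choice of windows was not tested. With TMM scaling 398 windows met the rule, 391 of them among the 544. The promoter windows of Cdkn2a and Cdkn2b, lost from NIH 3T3 cells, stood at 19.4 and 13.3 CPM in MSC controls and at 0.0274 and 0 CPM in NIH3T3 controls, and those of 6 of 8 stromal genes (Pdgfra, Pdgfrb, Col1a1, Col1a2, Prrx1 and Twist1) were at 4.24 CPM or more in the controls of both cell types. Of the other two, Thy1 stood at 0.0228 CPM in MSC controls and 2.74 CPM in NIH3T3 controls, and Eng had no window. Of the marrow stromal genes Cxcl12, Ebf1 and Runx2 were at 6.82 CPM or more in both, and Lepr at 0.495 CPM in MSC and 1.71 CPM in NIH3T3 controls. The blood genes Ptprc, Itgam, Cd3e and Spi1 had no window at their start sites. Of the endothelial genes, Kdr stood at 2.67 CPM in MSC controls and 1.08 CPM in NIH3T3 controls. Cdh5 stood at 0.598 and 1.22 CPM and Pecam1 at 0.101 and 0.660 CPM.

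Among the members 1 short word of DNA stood out. A ranking of all 2655 8-letter words found in at least 20 members placed TGATGCAA first. As background, this is the core of the C/EBP-ATF composite element, which ATF4 and related factors bind together with a C/EBP partner. ATF4 is the transcription factor of the integrated stress response, whose known targets include Chac1, Trib3, Sesn2, Ppp1r15a and the tRNA synthetases. A list of genes of this response was made after the members were seen. Of its 34 genes with a window 9 had a member, Chac1, Trib3, Sesn2 and Ppp1r15a among them. In the central 500 bp, 1 of the 13 members at these 9 genes held the word with its sixth letter free (TGATGNAA). TGATGCAA was singled out after the ranking was seen, so it carries no test. It is shown here in 12 members with the form TGATGNAA in capitals, 36 bases of genome on each side, read 5′ to 3′ on the strand that spells the word (RefSeq GRCm38.p6, which is mm10), first for 8 of the 12 members with the largest smaller ratio of both cell types and then for 4 members near genes of the lists described further on.
Paqr3 intron, chr5:97108494-97108573, minus strand: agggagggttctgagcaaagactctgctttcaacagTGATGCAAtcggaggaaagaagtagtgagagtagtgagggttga
Dlgap1 intron, first window, chr17:70690345-70690424, plus strand: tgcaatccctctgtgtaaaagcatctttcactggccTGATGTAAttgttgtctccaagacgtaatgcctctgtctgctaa
Dlgap1 intron, second window, chr17:70742754-70742833, minus strand: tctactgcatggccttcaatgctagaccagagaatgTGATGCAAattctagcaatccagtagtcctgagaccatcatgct
Arhgef3 intron, chr14:27312570-27312649, minus strand: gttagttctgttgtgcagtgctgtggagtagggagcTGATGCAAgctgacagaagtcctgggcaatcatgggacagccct
Amotl1 intron, chr9:14576503-14576582, plus strand: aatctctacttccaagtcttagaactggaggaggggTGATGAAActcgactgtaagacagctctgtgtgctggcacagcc
Phf20l1 intron, chr15:66605399-66605478, plus strand: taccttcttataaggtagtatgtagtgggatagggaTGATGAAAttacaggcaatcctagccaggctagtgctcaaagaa
Ndufaf2 intron, chr13:108065577-108065656, plus strand: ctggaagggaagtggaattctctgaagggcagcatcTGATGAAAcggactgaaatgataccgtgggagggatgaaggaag
Vdac3 intron, chr8:22589548-22589627, plus strand: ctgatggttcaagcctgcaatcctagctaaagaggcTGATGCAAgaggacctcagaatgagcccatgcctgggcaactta
Arpc5l, chr2:39011495-39011574, plus strand: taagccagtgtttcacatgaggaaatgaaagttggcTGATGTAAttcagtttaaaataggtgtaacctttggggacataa
near Sesn2, chr4:132514074-132514153, minus strand: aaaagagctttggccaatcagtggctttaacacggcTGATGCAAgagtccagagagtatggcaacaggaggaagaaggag
Ern1 intron, chr11:106439026-106439105, plus strand: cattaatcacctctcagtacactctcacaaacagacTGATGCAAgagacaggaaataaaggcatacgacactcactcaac
near Gm37074 and Atf3, chr1:191243987-191244066, plus strand: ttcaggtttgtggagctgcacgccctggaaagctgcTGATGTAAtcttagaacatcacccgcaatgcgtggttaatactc

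TGATGCAA was found on either strand in the central 500 bp of 177 members (32.5%), against 2.06% of all windows of the 4 h table, a ratio of 15.8. With the sixth letter free (TGATGNAA) it was in 332 members (61.0%), against 9.15% of all windows. The share differed with the sixth letter, since TGATGTAA was in 13.97% of members and 2.17% of all windows and TGATGAAA in 18.2% and 2.95%, whereas TGATGGAA was in 2.39% of members and 2.35% of all windows. Of the 12 stretches shown, Paqr3, the second Dlgap1 window, Arhgef3, Vdac3, Sesn2 and Ern1 carry the form with C. The letters beside the word also differed from those in all windows, with T directly before it at 2.63% of member matches against 17.9% of all matches, and A directly after it at 10.8% against 28.1%.

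The matches gathered at the middle of the windows. Within 50 bp of the centre lay 49.5% of the 380 matches in members, against 24.6% of the 35935 matches in all windows, so that 17.1 and 17.3 matches per 100 members fell in the 2 central bins of 50 bp against 1.20 and 1.18 per 100 windows overall. A single match was in 289 members, 2 matches in 40 and more than that in 3. When the members were ordered by the smaller of their 2 ratios and cut into 4 equal groups, the share with the word was 51.5%, 61.0%, 63.2% and 68.4% from the lowest group to the highest. These shares describe the chosen windows and were not tested.

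**Figure D1:**
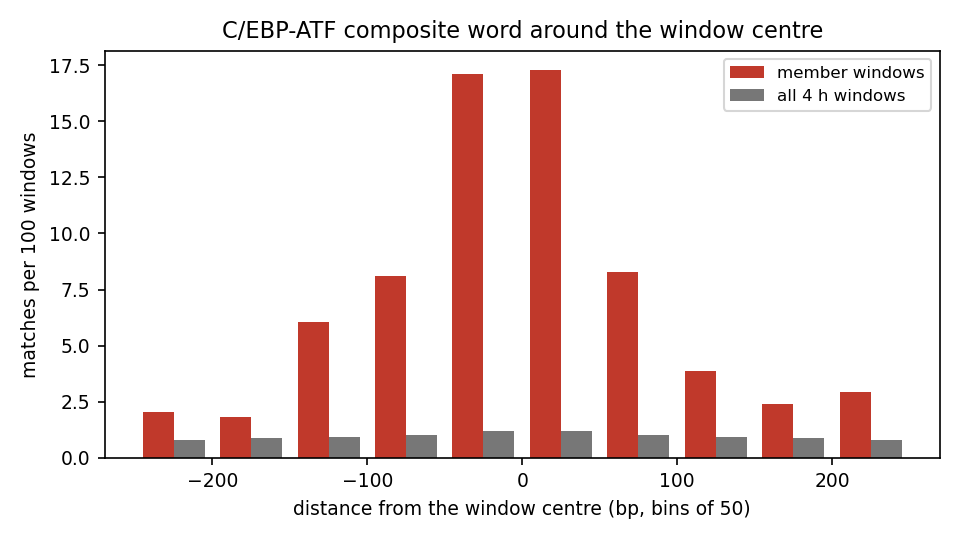
Matches of the C/EBP-ATF composite word (TGATGNAA, both strands) per 100 windows, in bins of 50 bp of distance from the window centre, for the 544 members and for all 369846 windows of the 4 h table. Members peak in the 2 central bins at 17.1 and 17.3 matches per 100 windows, while all windows stay between 0.807 and 1.20.

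The word was less frequent in windows opened in 1 cell type alone. It was in 18.4% of the 2562 windows that met the rule in MSCs alone, in 19.0% of the 12936 that met it in NIH3T3 cells alone, and in 8.65% of windows that met neither. At 24 h the same count was made over windows that no member overlaps. The word was in 30.5% of the 5245 such windows called with a gain under CK666 and in 7.19% of the 3184 called with a loss, against 9.97% of the 2919 with a gain and 9.02% of the 4203 with a loss under CytoD, and 8.74% of all windows that no member overlaps. These 24 h windows share no library with the choice of the members, but they were counted after the word was known, and the CK666 and CytoD calls share their control libraries.

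**Figure D2:**
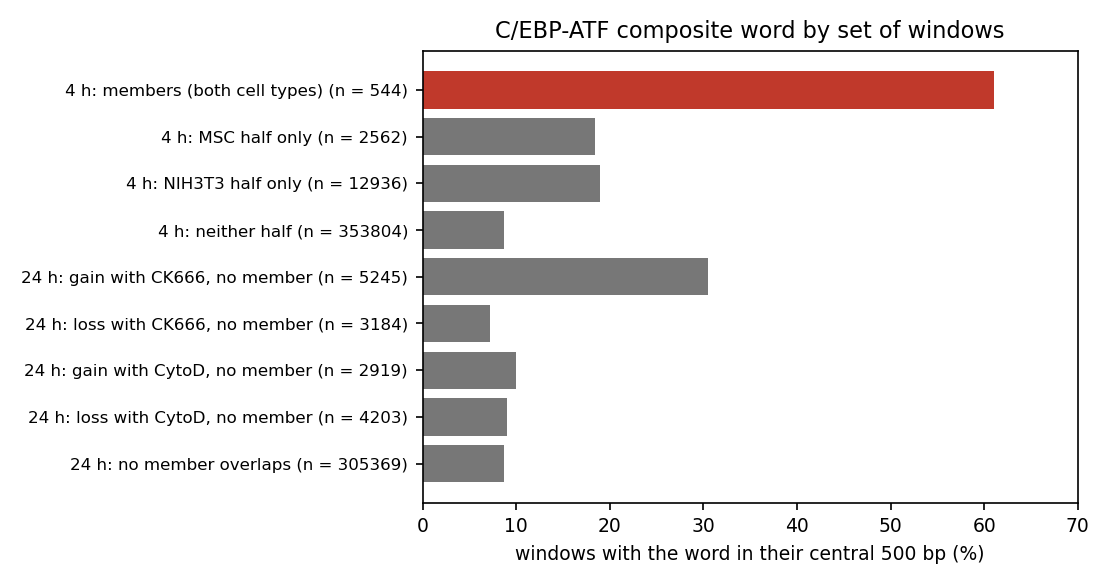
Share of windows (%) with the composite word TGATGNAA in their central 500 bp, for the members (61.0%), for 4 h windows that met the rule in 1 cell type or in neither, and for 24 h windows that no member overlaps, by call against control. Among the sets outside the members, the windows with a gain under CK666 at 24 h have the highest share (30.5%).

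Other motifs were nearer to their share in all windows or below it. The AP-1 site TGACTCA was in 16.9% of members against 26.1% of all windows, the CTCF core in 0.735% against 1.88% and the SP/KLF box GGGCGGG in 3.68% against 5.90%. The C/EBP site TTGCNNAA, which shares letters with the composite word, was in 26.5% against 20.9%, and the antioxidant response element, bound by NRF2, in 8.64% against 7.44%. The core of the aryl hydrocarbon response element, TNGCGTG, was in 3.31% of members (18 of 544) against 4.35%, the RUNX site TGTGGTT in 14.9% against 14.7%, and the CArG box of SRF in 3.68% against 2.71%. Apart from the composite word, the largest ratio to all windows was that of the glucocorticoid receptor site, in 9 members (1.65%) against 0.946%. All were searched on both strands of the central 500 bp. In the central 200 bp the direction turned for TNGCGTG (2.21% of members against 1.81%), for the CArG box (0.735% against 1.10%) and for the RUNX site (6.62% against 7.74%). Members had a median GC content of 45.2% against 45.6% of all windows, 4 CpG dinucleotides against 4, and a median length of 611 bp against 589 bp, and 4.04% of members against 8.60% of all windows lay mostly in masked repeats.

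At 4 h the median member stood near the level of the median window in control and above it with CK666. The median over the 544 members was 0.895, 0.866 and 0.923 CPM in the 3 MSC control libraries and 2.43, 2.44 and 2.50 CPM in the 3 MSC CK666 libraries. In NIH3T3 cells it was 0.739, 0.790 and 0.739 CPM in control and 2.52, 2.69 and 2.66 CPM with CK666. Over all windows the median was 0.709, 0.733 and 0.752 CPM in MSC controls and 0.821, 0.933 and 0.850 CPM in NIH3T3 controls. The lowest CK666 value was a median of 1.86 times the highest control value in MSCs (up to 6.80) and of 2.20 times in NIH3T3 cells (up to 9.41), with the larger ratio in NIH3T3 cells at 361 members. The ratio was above 2 in both cell types at 156 members, above 3 at 32 and above 4 at 7. At 65 members every control library of both cell types was under 0.5 CPM, which is 17.5 reads or fewer.

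The limit cuts through a continuous range. The 3 members just inside it had smaller ratios of 1.5016, 1.5016 and 1.5008, and the 3 windows just outside had 1.4993, 1.4983 and 1.4981. By edgeR's quasi-likelihood test at 4 h, at a log2 fold change above 1 and an adjusted p below 0.01, 370 members were called with a gain in MSCs, 424 in NIH3T3 cells and 310 in both, beside 0.59% of all windows in MSCs and 1.87% in NIH3T3 cells. Since these calls rest on the libraries that chose the members, nothing is read from them.

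**Figure D3:**
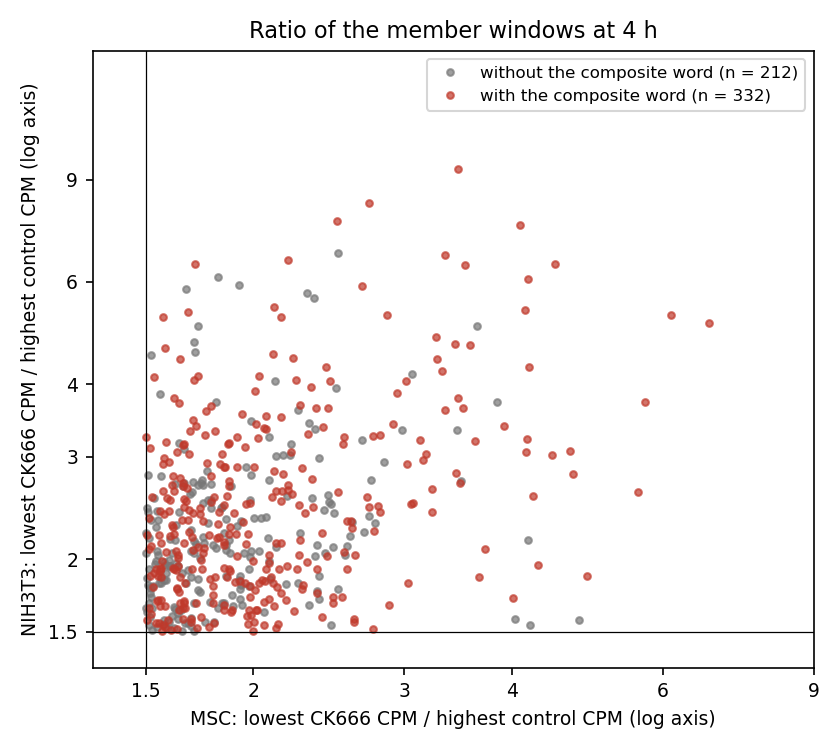
Lowest CK666 CPM over highest control CPM at 4 h for each of the 544 members, in MSCs (x, log axis) and in NIH3T3 cells (y, log axis). Red points are the 332 members with the composite word and grey points the 212 without it, and the lines mark the limit of 1.5. Both kinds of member spread over the range, with medians of 1.92 (MSC) and 2.33 (NIH3T3) with the word and 1.78 and 2.10 without it.

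Windows chosen in 1 cell type were tested in the other, with which they share no library. Of the 3106 windows chosen in MSCs, 2373 passed the low-count filter in NIH3T3 cells, and 472 of these (19.9%) were called there with a gain, beside a background of 1.87%. With a loss 13 were called (0.548%), against 1.67% of all windows. In the other direction 9240 of the 13480 windows chosen in NIH3T3 cells could be tested in MSCs, and 445 (4.82%) were called with a gain, beside a background of 0.59%, and 19 with a loss, beside 0.427%. Among windows with a mean of at least 0.5 CPM in the cell type of the test, the gains were 22.4% against 1.94% in NIH3T3 cells and 6.54% against 0.707% in MSCs.

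The member with the largest smaller ratio lay in an intron of Paqr3 (chr5:97108230-97108798), 2645 bp from its start site. Paqr3 encodes a Golgi membrane protein that holds back Raf signalling. The window had 0.675, 0.300 and 0.410 CPM in MSC controls and 4.24, 4.15 and 4.65 CPM with CK666, a ratio of 6.14. In NIH3T3 cells it had 0.698, 1.399 and 1.15 CPM in control and 8.21, 7.35 and 8.86 CPM with CK666, a ratio of 5.25. Every CK666 library of both cell types was thus above 4 CPM and every control library under 1.5 CPM. A window with its centre in a UTR of Capn8, a calpain protease gene, followed (chr1:182604965-182605549), with 0.169, 0.200 and 0.0684 CPM in MSC controls against 1.36, 1.37 and 2.18 CPM with CK666. In NIH3T3 cells the Capn8 window went from 0.123, 0.323 and 0.406 CPM to 2.07, 3.00 and 2.12 CPM.

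A pair of the leading members lay in introns of Dlgap1, a scaffold gene of the synapse, with the non-coding gene 5031415H12Rik as the nearest start site. The first (chr17:70690160-70690794) had 0.675, 0.666 and 0.239 CPM in MSC controls and 3.03, 3.97 and 3.87 CPM with CK666. Its NIH3T3 values were 0.533, 0.646 and 0.739 CPM and 5.24, 6.14 and 4.75 CPM. The second had ratios of 4.19 in MSCs and 4.29 in NIH3T3 cells. The next members were in introns of genes for the RhoA exchange factor Arhgef3 (ratios 4.18 and 6.07), the angiomotin Amotl1, a partner of YAP and actin (4.15 and 5.36), the chromatin reader Phf20l1 (4.09 and 7.52) and the cullin Cul2 (5.72 and 3.73). Chmp4c, of the membrane-cutting ESCRT-III complex, had the highest level of the 12 with CK666.

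The Chmp4c window, in an intron (chr3:10400743-10401816), had 2.09, 2.13 and 2.15 CPM in MSC controls and 9.39, 8.81 and 8.30 CPM with CK666. In NIH3T3 cells it had 3.00, 2.62 and 1.77 CPM and 11.2, 12.8 and 13 CPM. It is 1 of 2 among the 12 without the word in the central 500 bp. The other was an intron of Syne1, whose product nesprin-1 ties the nucleus to actin, at 0.135, 0.0666 and 0.205 CPM in MSC controls and 0.885, 0.829 and 0.749 CPM with CK666, and at 0.164, 0.287 and 0.148 CPM and 1.45, 1.52 and 1.94 CPM in NIH3T3 cells. The remaining 2 of the 12 lay in an intron of Ndufaf2, a complex I assembly factor, nearest to Smim15 (ratios 3.58 and 4.67), and in an intron of the mitochondrial channel gene Vdac3 (3.53 and 6.42).

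**Figure D4:**
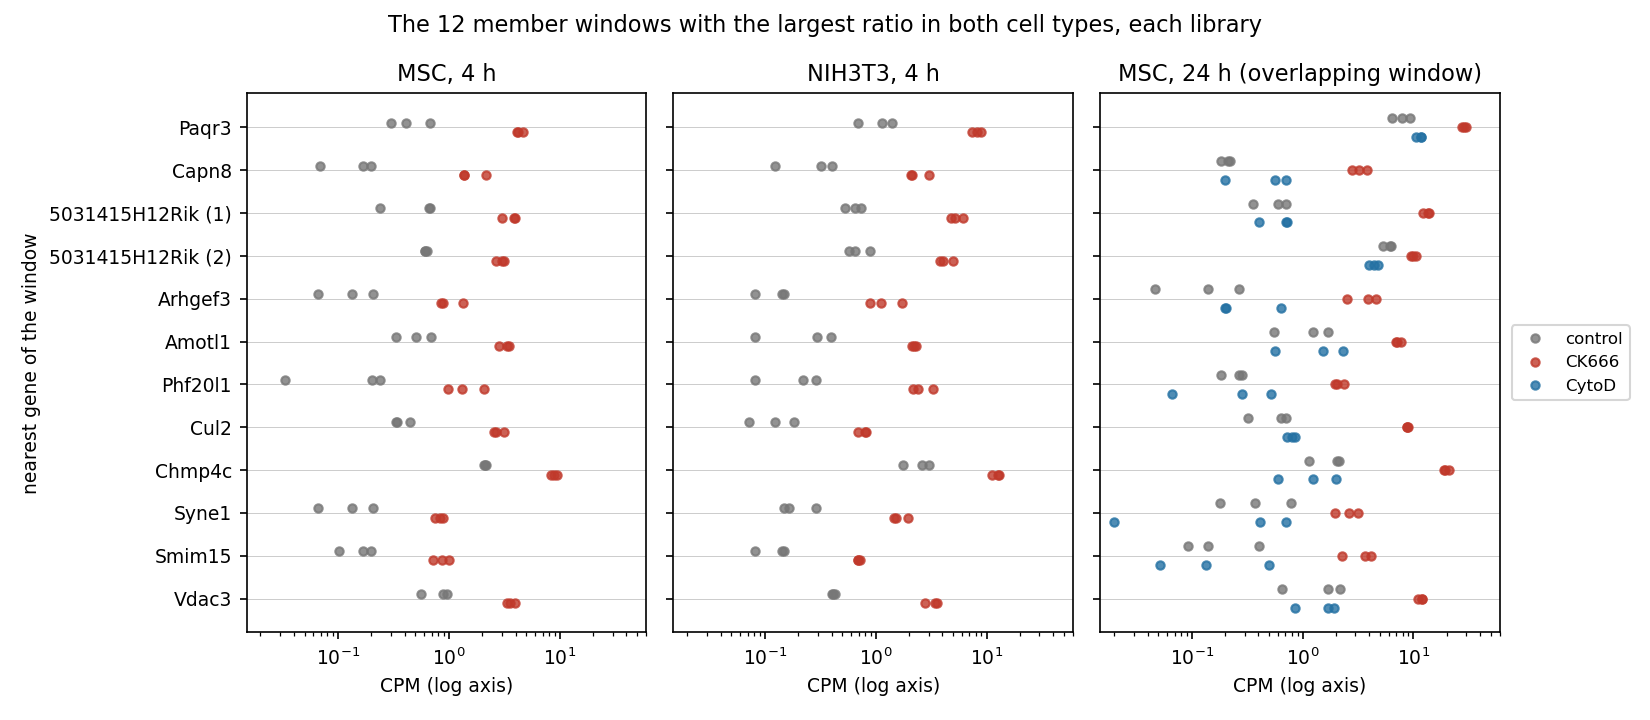
CPM (log axis) in every library for the 12 members with the largest smaller ratio, named by the gene with the nearest start site: MSCs at 4 h, NIH3T3 cells at 4 h, and the overlapping window in MSCs at 24 h, with control in grey, CK666 in red and CytoD in blue. A value of 0 is drawn at 0.02. At 24 h the CK666 libraries lie above all control and CytoD libraries at each of the 12.

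At 24 h, in MSC libraries that played no part in the choice, the members were again open with CK666. Of the 544 members 535 overlapped a window of the 24 h table, which made 531 different windows, all of which passed the low-count filter. The median over these windows was 1.42, 1.34 and 1.29 CPM in the 3 controls and 5.58, 5.41 and 5.53 CPM in the 3 CK666 libraries. The quasi-likelihood test called 385 of them (72.5%) with a gain, beside 1.88% of all windows tested, and 0 with a loss, beside 1.06%. The log2 fold change was above 0 at 521 of 531, with a median of 1.82 against 0.02 over all windows, and every CK666 library was above every control library at 479, against 13.6% of all windows. Of the 146 windows not called, 136 still had a log2 fold change above 0, among them 36 with an adjusted p under 0.01 and a change under 1.

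With CytoD the same windows stayed nearer to their control level than with CK666, though more of them rose than fell. Their median was 1.64, 1.54 and 1.49 CPM in the 3 CytoD libraries. With CytoD 23 windows (4.33%) were called with a gain, beside 0.98% of all windows, and 4 with a loss, beside 1.4%. The log2 fold change was above 0 at 338 of the 531 windows, with a median of 0.20 against 0.04 over all windows. Every CytoD library was above every control library at 154 of the 531, against 15.7% of all windows. Both comparisons use the same 3 control libraries, and 15 windows were called with a gain in both. The same overlap over all windows is not given here, so nothing is read from the 15. In the direct comparison of the treatments 353 windows (66.5%) were higher with CK666 than with CytoD, beside 2.14% of all windows, and 2 were higher with CytoD, beside 1.14%. The median difference was 1.66 on the log2 scale, against -0.03 over all windows.

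**Figure D5:**
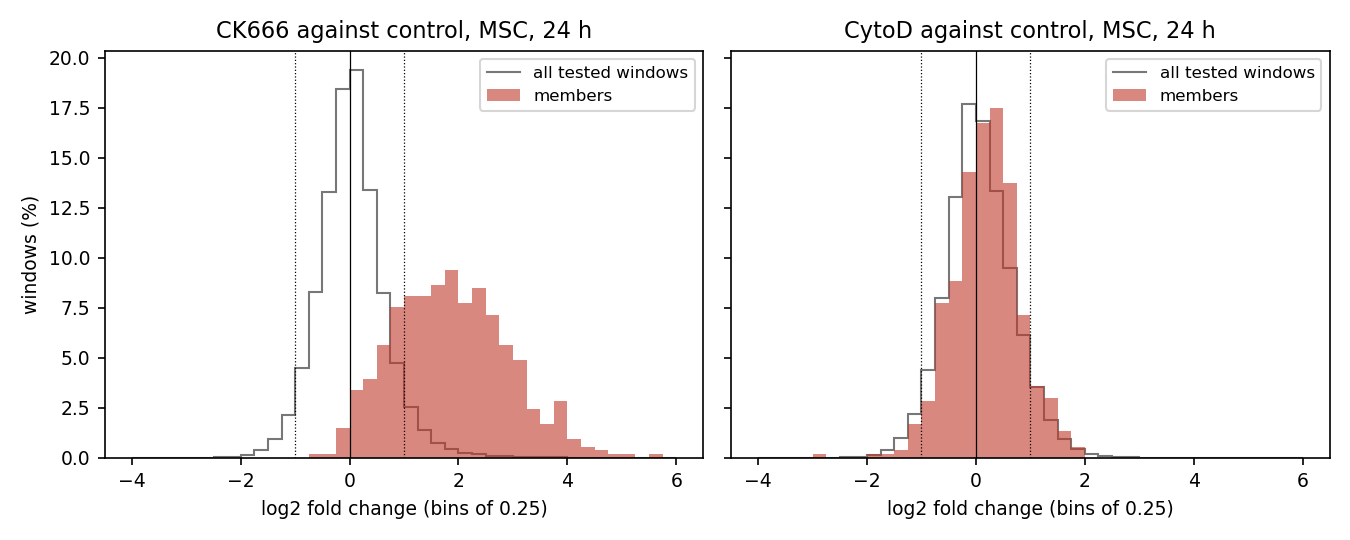
Share of windows (%) by log2 fold change against control in MSCs at 24 h, in bins of 0.25, for the 531 windows that overlap members (red) and for all 300323 tested windows (grey line), with CK666 on the left and CytoD on the right. Dotted lines mark a change of 1 in either direction. The members' median is 1.82 with CK666 and 0.20 with CytoD.

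The share of members called at 24 h was larger at larger 4 h ratios. Each share of gains with CK666 in this paragraph stands beside 1.88% of all windows. With CK666, 53.4% of the windows in the lowest of the 4 groups by smaller ratio were called, then 68.4%, 77.6% and 91.0% in the highest, and the median log2 fold change went from 1.16 to 2.50. With the word in the member, 259 of 325 windows (79.7%) were called and the median log2 fold change was 2.003, and without it 126 of 206 (61.2%) and 1.398. With CytoD 2.15% of windows with the word and 7.77% of those without it were called with a gain, beside 0.98% of all windows. Windows that had met the rule in MSCs alone, the cells of the 24 h experiment, were called with a gain under CK666 at 29.95% (691 of 2307), with a median of 0.71. Those that had met it in NIH3T3 cells alone were called at 9.62% (660 of 6860), with a median of 0.19. The MSC ratio at 4 h differed between these sets, with a median of 1.86 for members and 1.67 for windows that met the rule in MSCs alone, and its part in the difference was not tested.

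Of the 12 leading members 11 were called with a gain at 24 h under CK666, and all 12 were higher with CK666 than with CytoD in the direct test. The shares of all windows were 1.88% and 2.14%. The first Dlgap1 window had 0.354, 0.716 and 0.600 CPM in control, 12.3, 13.6 and 13.8 CPM with CK666 and 0.711, 0.400 and 0.720 CPM with CytoD, a log2 fold change of 4.49 ± 0.23 (SE) with an adjusted p of 1.01e-27 for CK666 by edgeR and 0.00 ± 0.38 (SE) for CytoD. The Chmp4c window had 1.13, 2.06 and 2.12 CPM in control and 19.0, 19.1 and 21.1 CPM with CK666, with 1.99, 0.601 and 1.23 CPM under CytoD. At Paqr3 the overlapping 24 h window was wider and already open in control, at 9.28, 7.83 and 6.47 CPM, and rose to 29.6, 27.3 and 28.3 CPM with CK666 (log2 fold change 1.87 ± 0.11 (SE), edgeR adjusted p = 8.22e-24). CytoD gave 10.5, 11.8 and 11.7 CPM there. The second Dlgap1 window, at 0.77 ± 0.15 (SE), was the 1 of the 12 under the fold limit.

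The largest 24 h changes with CK666 were at other members. A window near Slc27a6 (chr18:58520006-58520877), a fatty acid transporter gene, had 0.354, 0.179 and 0 CPM in control and 7.25, 7.06 and 8.09 CPM with CK666, a log2 fold change of 5.52 ± 0.38 (SE) (edgeR adjusted p = 8.21e-21). Its CytoD values were 0.924, 0.133 and 0.514 CPM. An intron of Tm9sf2, an endosomal membrane protein gene, changed by 5.06 ± 0.31 (SE) and the window nearest to Pou2f1, the gene of the octamer-binding factor OCT1, by 4.83 ± 0.43 (SE). No control library of these 3 windows was above 0.354 CPM. The next largest changes were at Gm11911 (4.57 ± 0.34 (SE)), Arhgef3 (4.50 ± 0.45 (SE)) and the first Dlgap1 window. At the lower end a member in an intron of Fhdc1, a formin-related gene of microtubules and actin, had 4.96, 5.80 and 3.69 CPM in MSC controls and 14.4, 13.9 and 13.8 CPM with CK666 at 4 h. At 24 h it had 10.1, 9.62 and 12.7 CPM in control and 6.81, 7.20 and 7.22 CPM with CK666, a log2 fold change of -0.62 ± 0.14 (SE) with an edgeR adjusted p of 6.55e-04, the 1 of 531 windows with a change under 0 at an adjusted p under 0.01. The next lowest were at Slc7a11, Ppp1r15b (-0.18 ± 0.12 (SE)) and 1110051M20Rik (-0.16 ± 0.43 (SE)), and these did not pass the test.

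Some members opened with CytoD as well. The largest CytoD change was in an intron of Arhgap42, a RhoGAP gene, at 1.90 ± 0.46 (SE) (edgeR adjusted p = 0.00254), with 0.283, 0.0895 and 0.416 CPM in control and 0.711, 1.07 and 1.28 CPM with CytoD. That call was lost without CytoD replicate 2 or 3 or control replicate 2, with an adjusted p of up to 0.0644. A window nearest to Cxcl15 among protein-coding genes had 4.60, 4.61 and 4.30 CPM in control, 10.9, 8.84 and 10.4 CPM with CK666 and 15.4, 15.7 and 17.2 CPM with CytoD, with log2 fold changes of 1.16 ± 0.14 (SE) and 1.77 ± 0.14 (SE). A window nearest to Gm412 had 2.05, 0.895 and 1.66 CPM in control, 6.12, 5.97 and 6.96 CPM with CK666 and 5.90, 4.87 and 5.40 CPM with CytoD, and the treatments differed by 0.31 ± 0.19 (SE) on the log2 scale, which did not pass the test (edgeR adjusted p = 0.318). The 2 windows that were higher with CytoD than with CK666, named here because they are so few, lay in an intron of Trabd2b and near 2010110G14Rik. The Trabd2b window (chr4:114534294-114534854) had 14.8, 14.1 and 15.5 CPM in control, 18.4, 15.5 and 16.2 CPM with CK666 and 41.0, 49.2 and 45.4 CPM with CytoD.

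Some members lay at genes of the integrated stress response. A list of 35 such genes was written after the word and the members were seen, so its 13 members at 9 genes, of 367 windows, were fixed by how the list was made and nothing is read from their number. Chac1 and Mars account for 6 of the 13. Chac1, whose product breaks down glutathione, had 4 members, the most of any gene, all within 4948 bp of its start site. These 4 windows lie side by side with short gaps between them, so they are not 4 distant sites. Hdac4, a class II histone deacetylase gene, had 3 members, with 24 h changes of 1.43 ± 0.19 (SE), 0.67 ± 0.34 (SE) and 0.18 ± 0.13 (SE) under CK666. The Chac1 member of largest smaller ratio (chr2:119355498-119356129) had 1.62, 1.499 and 1.85 CPM in MSC controls and 4.52, 4.52 and 5.33 CPM with CK666, and 1.07, 1.08 and 0.739 CPM and 2.97, 2.78 and 2.98 CPM in NIH3T3 cells. At 24 h its window had 1.98, 1.83 and 2.31 CPM in control, 5.24, 4.52 and 5.48 CPM with CK666 (log2 fold change 1.31 ± 0.24 (SE), edgeR adjusted p = 2.50e-05) and 1.71, 0.934 and 0.822 CPM with CytoD. The CytoD change at this Chac1 window was -0.94 ± 0.30 (SE) (edgeR adjusted p = 0.0279), and without CytoD replicate 1 it was -1.32 with an adjusted p of 0.00519. In the central 500 bp 0 of the 4 Chac1 members held the word TGATGNAA. Over the 13 members of the list 1 did, the Sesn2 member whose stretch is shown above. The word was in 61.0% of all members and 9.15% of all windows. Some windows of the list are longer than 500 bp, such as that at Atf5 with 2144 bp, and their outer sequence is not part of this count.

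A pair of adjoining members lay at Mars, the methionyl-tRNA synthetase gene, and at a coding exon of its neighbour Ddit3, the gene of the stress factor CHOP. The Mars window holds the start of an annotated Mars transcript, which need not be the main promoter of the gene. The Mars window (chr10:127296917-127298133) had 2.20, 2.47 and 2.15 CPM in MSC controls and 12.4, 11.1 and 10.4 CPM with CK666, and 1.76, 1.69 and 1.15 CPM and 2.90, 3.14 and 2.72 CPM in NIH3T3 cells. The Ddit3 window (chr10:127295202-127296902) had 1.18, 1.17 and 1.03 CPM and 5.09, 4.77 and 4.87 CPM in MSCs and 1.48, 1.29 and 0.998 CPM and 3.04, 2.33 and 3.76 CPM in NIH3T3 cells. The ratios were larger in MSCs, at 4.20 and 4.04 against 1.54 and 1.58. At 24 h their log2 fold changes with CK666 were 1.89 ± 0.18 (SE) and 1.54 ± 0.18 (SE), with edgeR adjusted p of 4.20e-14 and 4.65e-11. With CytoD they were -0.38 ± 0.22 (SE) and 0.27 ± 0.19 (SE), neither of which passed the test.

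Near Sesn2, a sestrin gene that restrains mTORC1, the member (chr4:132513803-132514359, intergenic) had 2.53, 2.37 and 1.88 CPM in MSC controls and 7.11, 5.69 and 5.46 CPM with CK666. In NIH3T3 cells it had 1.52, 1.90 and 1.29 CPM and 6.69, 10.4 and 9.59 CPM. At 24 h it had 1.77, 2.46 and 2.54 CPM in control and 8.52, 8.33 and 9.88 CPM with CK666 (1.95 ± 0.20 (SE) on the log2 scale, edgeR adjusted p = 1.24e-12), but 1.63, 1.07 and 0.976 CPM with CytoD. The member in an intron of Trib3, a pseudokinase gene, changed by 2.07 ± 0.40 (SE) with CK666 at 24 h (edgeR adjusted p = 6.66e-05). At the start of Ppp1r15a, whose product GADD34 lets translation resume after stress, the change was 1.04 ± 0.29 (SE) (edgeR adjusted p = 0.00825), a call that was lost under 8 of the alternatives, with 0.61 and an adjusted p of 0.24 without control replicate 2. In all 7 of the 11 windows at genes of this list (63.6%) were called with a gain under CK666, beside 72.5% of the windows of all members and 1.88% of all windows. With CytoD 0 were called with a gain, beside 0.98% of all windows, and 2 with a loss, beside 1.4%. Those at Atf5, Gars, Pck2 and Slc7a11 were not called with CK666.

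The 4 windows called with a loss under CytoD were at Atf5, a stress-response transcription factor gene, Sesn2, Adamtsl3 and Ints9, the last pair named because the count is small. The Atf5 window had 4.39, 2.42 and 1.29 CPM in control, 3.87, 3.67 and 5.89 CPM with CK666 and 0.569, 0.667 and 1.08 CPM with CytoD, a log2 fold change of -1.76 ± 0.34 (SE) for CytoD (edgeR adjusted p = 6.02e-05) and 0.79 ± 0.26 (SE) for CK666 (edgeR adjusted p = 0.0370). Without control replicate 1 the CK666 change at Atf5 was 1.23 with an adjusted p of 0.00171. The calls at Sesn2, Adamtsl3 and Ints9 were each lost without single libraries, Sesn2 for example at -0.86 and an adjusted p of 0.0633 without CytoD replicate 3, Adamtsl3 at -0.998 and 0.0732 without the same library, and Ints9 at -1.09 and 0.0866 without control replicate 1. The Adamtsl3 call was lost whichever library was left out, and also with DESeq2 (adjusted p = 0.0114) or a replicate block. All 3 calls were lost with column totals or with only the groups compared, and Ints9 also with DESeq2. By size the lowest CytoD changes were at Fat3 (-2.81 ± 0.88 (SE)), Atf5 and Ccdc7b (-1.63 ± 0.54 (SE)), of which Fat3 and Ccdc7b did not pass the test. Without control replicate 3 the Fat3 change was -3.29 with an adjusted p of 0.00764.

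The other gene lists held few members. Of the aryl hydrocarbon receptor list (14 genes, 114 windows) the member was near Gsta1, a glutathione transferase gene, and of the NRF2 list (9 genes, 137 windows) it was 40459 bp from Slc7a11, the cystine transporter. At 24 h the log2 fold change of the Gsta1 window was 1.21 ± 0.48 (SE) with CK666, without passing the test (edgeR adjusted p = 0.105), and that of the Slc7a11 window was -0.25 ± 0.23 (SE). The Arp2/3 list, the target of CK666, had 1 member at Arpc5l, which encodes a subunit of the complex (chr2:39011138-39012093). It had 0.507, 1.37 and 1.54 CPM in MSC controls and 5.69, 5.63 and 5.33 CPM with CK666, and 0.739, 1.29 and 0.850 CPM and 4.90, 5.83 and 5.49 CPM in NIH3T3 cells. At 24 h its window had 3.40, 1.70 and 1.99 CPM in control, 12.3, 12.6 and 11.7 CPM with CK666 (2.43 ± 0.19 (SE), edgeR adjusted p = 8.19e-18) and 1.42, 2.07 and 2.98 CPM with CytoD.

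In the unfolded protein response list the member was in an intron of Ern1, the gene of the endoplasmic reticulum sensor IRE1, with a 24 h change of 1.83 ± 0.42 (SE) under CK666 (edgeR adjusted p = 0.00119). That call was lost without CK666 replicate 1, CK666 replicate 3 or control replicate 2, with an adjusted p of up to 0.0199. Among protein-coding genes alone, Dnajb9, an endoplasmic reticulum chaperone gene, was nearest to 1 further member (1.54 ± 0.18 (SE) at 24 h) and Atf3, a stress-induced partner of AP-1, to 2. The Atf3 members had 24 h changes of 1.97 ± 0.25 (SE) and 2.42 ± 0.33 (SE), with edgeR adjusted p of 2.18e-09 and 1.17e-08. By the nearest start site of any gene, the AP-1, SRF-MRTF, YAP-TEAD, adipogenic and osteogenic lists had 0 members in 70 to 225 windows each. Of all windows within 50 kb of a start site 0.152% were members, and at that share a list of this size holds fewer than 1 window on average.

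Most members lay away from promoters. A transcription start site lay inside 20 members (3.68%), against 6.73% of all windows. The centre of the window was in an intron at 53.9% of members and between genes at 38.1%, against 47.1% and 41.4% of all windows. The median distance to the nearest start site was 10120 bp against 10308 bp, and 487 members were within 50 kb of the start sites of 476 genes, with 8 genes given 2 or more members. A second member lay within 50 kb of 38 members. Among chromosomes with members, the share of members relative to that of all windows was highest on chromosome 11 (7.54% against 4.79%) and lowest on chromosome 15 (2.57% against 4.44%).

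Of the 20 members with a start site, 12 (60%) were called with a gain under CK666 at 24 h, beside 72.5% of the windows of all members and 1.88% of all windows. With CytoD 1 was called with a gain, beside 4.33% and 0.98%. The brightest was at Sqor, which oxidises sulfide in mitochondria, with 9.42, 10.9 and 9.95 CPM in MSC controls and 21.9, 19.6 and 20.7 CPM with CK666. At 24 h the log2 fold changes at Sqor were 0.70 ± 0.11 (SE) with CK666 and 0.66 ± 0.11 (SE) with CytoD, each under the fold limit of 1, and the direct difference was 0.05 ± 0.10 (SE). Tenm4, a teneurin gene of cell contacts, had a larger ratio in NIH3T3 cells, from 2.17, 1.97 and 2.40 to 14.7, 18.4 and 18.8 CPM, than in MSCs, from 1.55, 1.13 and 1.20 to 2.91, 2.83 and 2.93 CPM. The promoter window of Soat2, a cholesterol esterification enzyme gene, went from 2.22, 2.26 and 1.77 to 13.2, 12.3 and 12.4 CPM in NIH3T3 cells and from 1.05, 1.23 and 1.3 to 4.01, 4.00 and 2.74 CPM in MSCs.

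The start-site member called under CytoD was at Cd74, the invariant chain of MHC class II. Its 24 h window had 0.991, 1.34 and 0.831 CPM in control, 10.1, 8.89 and 9.47 CPM with CK666 and 2.91, 2.67 and 2.93 CPM with CytoD. The log2 fold changes were 3.15 ± 0.22 (SE) and 1.33 ± 0.25 (SE), with edgeR adjusted p of 1.06e-20 and 5.74e-05, and CK666 was higher than CytoD by 1.81 ± 0.19 (SE). At Zc3h14, a poly(A) RNA-binding protein gene, the changes were 1.52 ± 0.11 (SE) and 0.68 ± 0.12 (SE), at Phyhd1 1.19 ± 0.13 (SE) and 0.12 ± 0.14 (SE), at Gm37406 2.59 ± 0.15 (SE) and 0.00 ± 0.19 (SE), and at Prdm15 0.78 ± 0.08 (SE) and 0.15 ± 0.08 (SE). The other start-site members were at Dock3, Abhd12, Smg6, Hdac11, Gsdme, Wfdc17, Ifi44 and Ccdc7b and at the non-coding or predicted genes Gm5833 and Gm48096.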

How the data were processed

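ATAC-seq was compared across 12 libraries at 4 h and 9 at 24 h, in groups of 3. The authors deposited raw read counts per window, made with the PEPATAC pipeline on mm10 (bowtie2 alignment, MACS2 peaks merged over replicates). Tool versions were not given. A further 9 siRNA libraries were not used, because their counts per window had a rank correlation of -0.003 to 0.00176 with the untransfected libraries, against 0.752 to 0.872 among the latter, and the cause was not tested.

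From these counts CPM by column total was computed, and edgeR 4.0.16 (R 4.3.3) was run over all windows with filterByExpr, TMM and the quasi-likelihood test. Calls needed a log2 fold change beyond 1 in size and a Benjamini-Hochberg adjusted p below 0.01. The 9 libraries at 24 h were fitted together, and each cell type alone at 4 h. Members were joined to 24 h windows by the longest overlap of at least 1 bp. On simulated counts the test recovered 87.5%, 86% and 84% of 200 windows changed by 2 on the log2 scale, at 24 h, in MSCs at 4 h and in NIH3T3 cells at 4 h. The changed windows were drawn only from those with a higher mean count. Recovery of smaller changes or in windows of low signal was therefore not measured. Genes were taken from GENCODE and sequences from RefSeq GRCm38.p6, the same assembly. The start of every annotated transcript was taken as a start site. Replicates of a group differed by more than sampling noise.

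The members and gene lists were chosen with earlier results of these data known. Named windows were the 12 of largest smaller ratio, those with a start site, those of genes with 3 or more members or on the lists (by the nearest gene of any kind or nearest protein-coding gene within 50 kb), the extremes at 24 h and those at the limit. The stress-response genes and windows called in the rarer direction were added after their values were seen. Alternatives were other scalings, DESeq2 1.42.0, filters, limits, overlaps, search stretches, a replicate block and leaving out each library.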

Additional observations from a re-analysis of the deposited data

How the results depend on the processing

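Of 42 values of the main results under other settings, leaving out libraries apart, 37 stayed within 1.5 times the count reported or within the counting interval of a share. With a ratio limit of 2 the rule gave 156 windows and with a lower limit it gave 1440. Without a fold limit 55 windows were called with a gain under CytoD. The composite word was in 68.4% of members when the whole window was searched and in 46.1% within the central 200 bp, both chosen after seeing the data. When single libraries were left out, the rule gave 598 to 737 windows, since fewer libraries then had to satisfy the rule. There were then 361 to 388 gains with CK666, 19 to 27 with CytoD and 330 to 361 windows higher with CK666 than with CytoD, and 374 to 473 and 347 to 402 gains across the cell types. DESeq2 called 371 of the 521 members it gave an adjusted p at 24 h with CK666. Of 168 named log2 fold changes, 13 changed side of the threshold under at least 1 alternative. Where the main fit or the alternative called the window, 0 values had the opposite sign. Sign changes of values that neither fit called were not counted. With 7.04 to 17.5 reads at 0.5 CPM, depth limits the members of lowest signal.

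Same-numbered libraries did not deviate together, with correlations of -0.057 to 0.030, so replicate numbers were not taken to pair the samples. With a replicate block the gains were 385 with CK666 and 24 with CytoD, 355 windows were higher with CK666 than with CytoD, and the gains across the cell types were 471 in NIH3T3 cells and 455 in MSCs.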
